A study of Rattus norvegicus with 6 samples.

Results

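The Toll-like and NOD-like microbial sensors and the adaptor of the Toll-like receptors were examined in rat jejunum, the middle part of the small intestine. Of the 10 genes listed (Tlr2, Tlr3, Tlr4, Tlr5, Tlr9, Myd88, Nod1, Nod2, Nlrp3 and Naip2), 8 had a probe on the array, among 13838 named genes in all. Probes were taken by the RefSeq accession that the array design gives them. Naip2 was taken by its own mRNA accession in the design. Nod1 and Nod2, whose products detect fragments of bacterial cell wall, had no probe by this rule and are named only. Each of the 8 genes was represented by 1 probe, and all 8 probes were well above background on 6 of 6 arrays.

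All rats were male Sprague-Dawley animals of 6 weeks that weighed 200 ± 20 g and had been kept at 25°C before the experiment. The S3d group spent 2 h daily at 35°C under vibration of 0.1 g, repeated over 3 days, and the control group received neither heat nor shaking. Each group had 3 samples on 1-colour Agilent arrays, and each sample was RNA pooled from 3 rats. The labels give 10 rats per group and do not say whether pools share animals. The methods give 6 rats per group, in which case 3 pools of 3 rats would share animals and the samples would not be independent, so the spread between samples is that between pools and holds no value of a single rat.

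Toll-like receptors are membrane proteins that bind conserved microbial molecules, at the cell surface (Tlr2, Tlr4, Tlr5) or inside endosomes (Tlr3, Tlr9), and pass the signal through adaptor proteins to NF-kappaB and interferon regulatory factors. NOD-like receptors do the same in the cytosol, and some of them, such as Nlrp3 and the Naip proteins, assemble inflammasomes that activate caspase-1. In the intestine these sensors are found in epithelial cells and in the immune cells of the mucosa, where they face a large resident microbiota.

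RefSeq promoters on the GRCr8 build were available for 7 of the 8 genes with a probe. The 250 bases before the start site are shown for Tlr9 and Myd88, the genes that read higher on the arrays labelled S3d, and for Tlr2 and Nlrp3, which had the largest lower differences among genes with a promoter entry. They are written on the strand of the gene, and the last base adjoins the start site. Capitals mark matches to the NF-kappaB consensus, to the heat shock element half-pairs GAANNTTC and TTCNNGAA, and to the core of interferon-stimulated response elements (a pair of GAAA with any 2 bases between), searched on both strands.
Tlr9, chr8:115743157-115743406, + strand: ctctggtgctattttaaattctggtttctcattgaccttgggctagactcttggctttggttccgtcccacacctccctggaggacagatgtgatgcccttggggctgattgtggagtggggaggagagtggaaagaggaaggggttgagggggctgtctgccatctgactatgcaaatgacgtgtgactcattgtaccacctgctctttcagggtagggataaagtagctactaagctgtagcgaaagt
Myd88, chr8:127956231-127956480, - strand: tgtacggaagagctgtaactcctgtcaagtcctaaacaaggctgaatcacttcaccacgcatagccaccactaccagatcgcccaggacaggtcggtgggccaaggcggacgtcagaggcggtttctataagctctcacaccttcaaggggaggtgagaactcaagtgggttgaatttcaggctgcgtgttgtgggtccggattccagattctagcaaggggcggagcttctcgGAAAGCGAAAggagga
Tlr2, chr2:171504558-171504807, - strand: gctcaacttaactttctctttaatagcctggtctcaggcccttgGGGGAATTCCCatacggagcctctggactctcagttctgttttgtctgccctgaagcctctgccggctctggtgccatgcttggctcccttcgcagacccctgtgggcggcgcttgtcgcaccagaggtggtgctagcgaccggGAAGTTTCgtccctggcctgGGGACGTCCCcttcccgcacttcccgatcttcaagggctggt
Nlrp3, chr10:44827848-44828097, + strand: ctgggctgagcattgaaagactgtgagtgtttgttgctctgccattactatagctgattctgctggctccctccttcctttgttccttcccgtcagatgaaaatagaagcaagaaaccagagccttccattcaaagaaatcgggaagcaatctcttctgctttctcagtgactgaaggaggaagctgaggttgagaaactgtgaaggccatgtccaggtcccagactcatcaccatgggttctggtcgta
The Tlr2 promoter held 2 overlapping matches to the NF-kappaB consensus, 206 to 196 bases before the start site, and a separate match 42 to 33 bases before it. It also held GAANNTTC 62 to 55 bases before the start site. In the Myd88 promoter, the interferon-stimulated core was found 16 to 7 bases before the start site. These motifs were not found in the same window of Tlr9, Nlrp3, Tlr3, Tlr4 or Tlr5. Of all 33469 rat promoters of this length, 6.33% held the NF-kappaB consensus, 7.23% held GAANNTTC, 7.48% held TTCNNGAA and 3.41% held the interferon-stimulated core.

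The arrays labelled S3d were brighter, with a 75th percentile of the processed signal of 1456 to 1566 against 414 to 430 on the arrays labelled control. The share of spots well above background was 77.5% to 81.5% on the former and 69.1% to 73.7% on the latter. All control arrays shared a slide, all S3d arrays shared another, and 450 days passed between the scans, so slide, scan and group cannot be told apart. The group labels of the deposited normalized table and of the scanner files were exchanged. In 6 of 6 cases a column of the table followed the same-numbered scanner file from the opposite group (Spearman's rho of at least 0.999993), while rho with the file of its own label was 0.941 to 0.948. No sample was reassigned, all values below follow the labels of the scanner files, and the difference by the table's own labels is given for each sensor. The array labelled S3d 1 stood apart. The summed signal of 4 pancreatic enzyme genes, relative to the array's 75th percentile, was 761 there against 0.269 to 1.91 on the other 5 arrays, and results without this array are given beside those with it.

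Of 8 sensor and adaptor probes, 7 differed between the groups at an adjusted p under 0.05 (limma, Benjamini-Hochberg over 31367 probes), 2 of them higher on the arrays labelled S3d and 5 lower. For Naip2, the member that the study lists itself, this direction is the opposite of the one the study gives, which is that of the table by its own labels. The same holds for 9 of 10 genes with RT-PCR directions, measured apart from the arrays, while the probes of the last, Herpud1, disagreed with each other. By the labels of the table none of the 10 was opposite, so the RT-PCR directions run with the labels of the table and against the directions given here, and every direction below turns if those labels are the right ones. This call was made for 73.9% of all probes tested, 39.4% higher and 34.5% lower, so that 7 of 8 lies near the background. All 7 also passed a fold change of 1.5, which 52.4% of the tested probes did, 29.2% higher and 23.3% lower. In 7 of 8 genes the groups did not overlap, as was the case for 78.3% of the tested probes. The median difference of the 8 probes was -0.84 on the log2 scale, against 0.08 over all probes tested. The same 7 probes were called without the array labelled S3d 1, where the difference was -2.11 for Tlr2, 0.19 for Tlr3, 2.66 for Tlr9, 0.85 for Myd88 and -1.08 for Nlrp3. By the table and its own labels 7 of 8 were called as well, where 70.1% of all probes were. With normexp, a model-based background correction, 1 of 8 and 5.59% of all probes were called, and once the flagged local backgrounds had been replaced, 7 of 8 and 81.4%. In whole tissue, fewer cells of a type and less RNA per cell cannot be told apart.

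**Figure D1:**
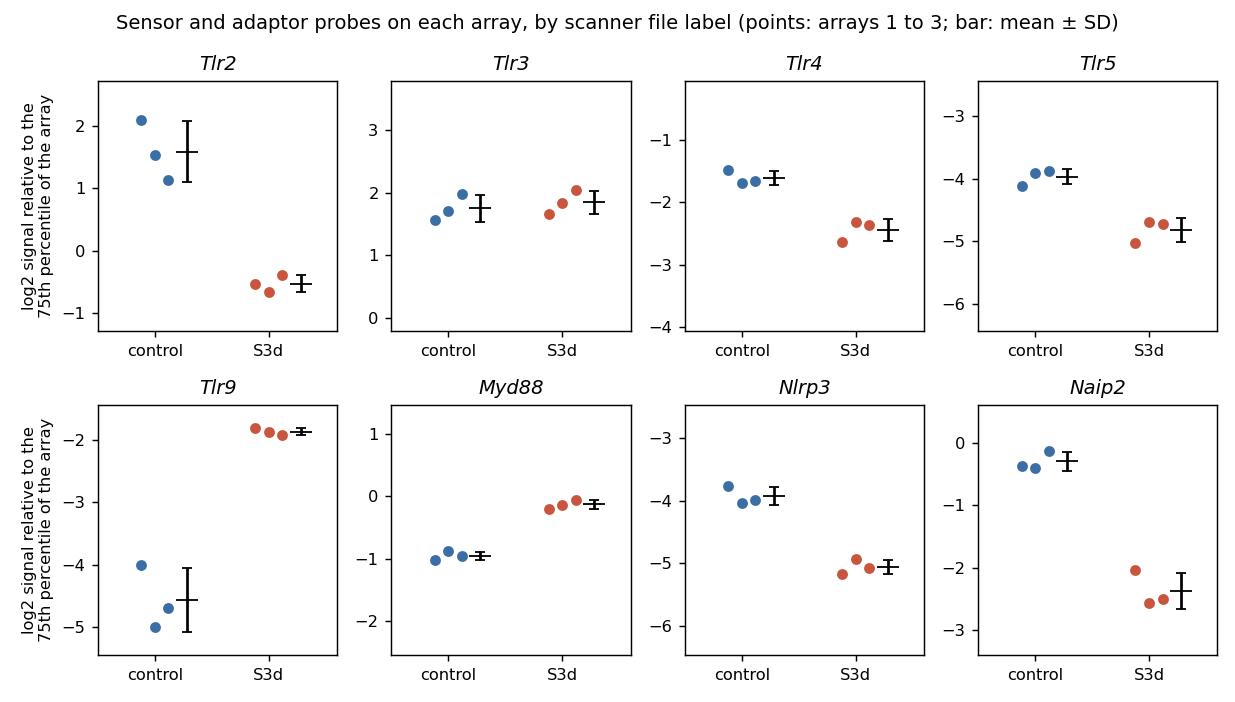
Log2 signal of the 8 probes relative to the 75th percentile of each array (vertical axis), with 1 point for each of the 3 arrays labelled control (blue) and S3d (red) and bars for mean ± SD. The groups are apart in 7 panels and overlap for Tlr3, and Tlr9 and Myd88 are higher on the arrays labelled S3d.

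Tlr2, which binds bacterial lipoproteins together with Tlr1 or Tlr6, read lower on the arrays labelled S3d, by nearly the same amount as Naip2. Its log2 signal relative to the 75th percentile of the array was 2.09, 1.53 and 1.13 for the samples labelled control 1, 2 and 3, against -0.53, -0.66 and -0.38 for those labelled S3d 1, 2 and 3. Every array labelled control lay above every array labelled S3d, and the control arrays spread more widely. The means were 1.58 ± 0.48 and -0.52 ± 0.14 (SD, n = 3 each), a difference of -2.11 ± 0.24 (SE, 95% confidence interval -2.71 to -1.51) or 4.31-fold lower on the arrays labelled S3d (limma, adjusted p = 0.000435). By the labels of the deposited table the difference was 2.07 (limma, adjusted p = 0.000479). Of the probes tested, 7.57% differed by more. Without scaling between arrays the difference was -0.26 and was not called (limma, adjusted p = 0.311).

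For Tlr3, which recognises double-stranded RNA in endosomes, no difference was called. Its log2 signal was 1.56, 1.71 and 1.99 in the samples labelled control and 1.67, 1.84 and 2.04 on those labelled S3d. Both groups covered nearly the same range. The difference was 0.10 ± 0.15 (SE, limma, adjusted p = 0.577), with a 95% confidence interval of -0.26 to 0.46 on the log2 scale. By the labels of the table it was -0.20 (limma, adjusted p = 0.283).

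Tlr4, the receptor for lipopolysaccharide, read lower on the arrays labelled S3d. The values were -1.48, -1.70 and -1.66 on the arrays labelled control, against -2.64, -2.31 and -2.36 on those labelled S3d, and the groups did not overlap. The lowest value was that of the array labelled S3d 1. The difference was -0.82 ± 0.11 (SE, 95% confidence interval -1.10 to -0.54) or 1.77-fold lower (limma, adjusted p = 0.000914), it was -0.72 without the array labelled S3d 1, and the table by its own labels gave 0.95.

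Tlr5, which binds flagellin, was dim on every array, although well above background on all 6. It read -4.11, -3.91 and -3.88 on the arrays labelled control, against -5.03, -4.70 and -4.72 on those labelled S3d. The groups did not overlap, and the array labelled S3d 1 was again the lowest. The difference was -0.85 ± 0.12 (SE, 95% confidence interval -1.15 to -0.56) or 1.80-fold lower (limma, adjusted p = 0.00102). It was -0.74 without the array labelled S3d 1 and -1.30 after quantile normalization, and the table by its own labels gave 1.32.

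The directions of Tlr4, Tlr5 and Nlrp3 are relative to the rest of the array, since without scaling their differences were 1.02, 1.00 and 0.71, all higher on the arrays labelled S3d, where the median of all tested probes was 1.93. Relative to that median, these probes, Tlr2 and Naip2 were below it in each case, and Tlr3, Tlr9 and Myd88 were above it.

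Tlr9, the endosomal receptor for unmethylated CpG DNA, had the largest difference of the 8 probes with the 75th percentile scaling, but the smallest with plain normexp (0.08, not called). It read -4.00, -4.99 and -4.69 on the arrays labelled control, against -1.82, -1.88 and -1.93 on those labelled S3d. The arrays labelled S3d lay close together and far above all arrays labelled control. The means were -4.56 ± 0.51 and -1.88 ± 0.06 (SD, n = 3 each), a difference of 2.69 ± 0.25 (SE, 95% confidence interval 2.08 to 3.29) or 6.43-fold higher (limma, adjusted p = 0.000171). Of the probes tested, 3.48% differed by more, and the table by its own labels gave -2.41. The spots were dim on the arrays labelled control. The processed signal was 13.4 to 25.9 on the arrays labelled control, over a local background of 35 to 40, and 411 to 422 on those labelled S3d. With normexp background correction, after flagged local backgrounds had been replaced, the difference was 0.88 and still called, smaller than that of Tlr2 (-1.86), Naip2 (-1.78), Nlrp3 (-1.37) or Tlr5 (-1.22) under the same correction.

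Myd88, the adaptor through which all Toll-like receptors except Tlr3 signal, read higher on the arrays labelled S3d. The values were -1.01, -0.88 and -0.96 on the arrays labelled control, against -0.20, -0.14 and -0.06 on those labelled S3d. The replicates of each group were close, and the groups were far apart in comparison. The means were -0.95 ± 0.07 and -0.13 ± 0.07 (SD, n = 3 each), a difference of 0.82 ± 0.07 (SE, 95% confidence interval 0.64 to 1.00) or 1.77-fold higher (limma, adjusted p = 0.000138), and the table by its own labels gave -0.80. The adaptor and Tlr9 were thus both higher on the arrays labelled S3d, while the surface receptors Tlr2, Tlr4 and Tlr5 were lower.

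Nlrp3, the sensor of an inflammasome that responds to many signals of infection and cell damage, was spotted 10 times on each array. Its spots averaged -3.75, -4.03 and -3.98 on the arrays labelled control, against -5.16, -4.93 and -5.07 on those labelled S3d. All arrays labelled S3d were below all arrays labelled control. The difference was -1.13 ± 0.10 (SE, 95% confidence interval -1.39 to -0.88) or 2.19-fold lower (limma, adjusted p = 0.000167), and the table by its own labels gave 1.62. The spots of 1 array differed among themselves by an SD of 0.12 to 0.17, so that the group difference was larger than the spread within arrays and between them. Only the newer of the array's design files pairs this probe with the gene.

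Naip2 belongs to the Naip family, whose members bind bacterial flagellin or parts of the type III secretion system and activate the Nlrc4 inflammasome. Its probe read -0.37, -0.40 and -0.13 on the arrays labelled control, against -2.04, -2.57 and -2.49 on those labelled S3d. The groups were well apart. The means were -0.30 ± 0.15 and -2.37 ± 0.29 (SD, n = 3 each), a difference of -2.07 ± 0.16 (SE, 95% confidence interval -2.46 to -1.67) or 4.19-fold lower (limma, adjusted p = 9.1e-05). Without the array labelled S3d 1 the difference was -2.23, and the table by its own labels gave 2.15 (limma, adjusted p = 0.000116). Without scaling it was -0.22 and was not called (limma, adjusted p = 0.188). RefSeq lists Naip2 as an older name of Naip6, and the copies of this family are nearly identical in sequence, so the gene behind the signal is uncertain.

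**Figure D2:**
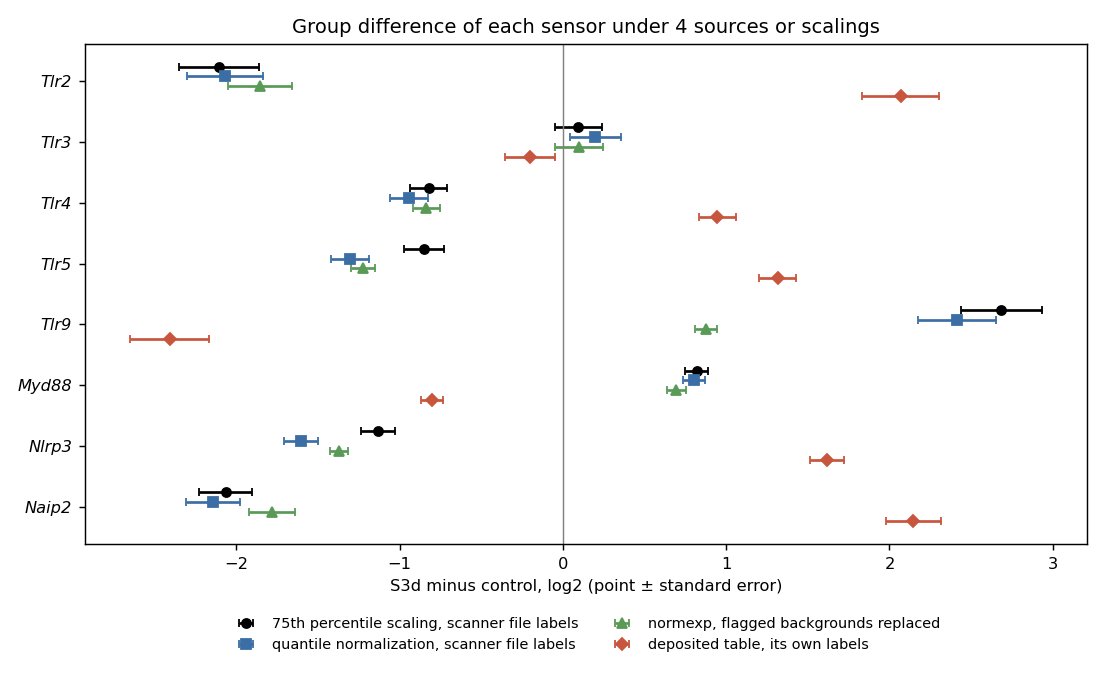
Difference of each sensor between the groups, S3d minus control on the log2 scale (horizontal axis, point ± standard error), under 3 treatments of the scanner files and in the deposited table by its own labels. The table has the opposite sign in all 8 genes, and Tlr9 is nearer to 0 with normexp after flagged local backgrounds were replaced (0.88) than with the 75th percentile scaling (2.69).

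Genes of the same pathways were followed in a list of 64 genes, of which 47 had a probe and 45 were tested. Of these, 7 were called higher with the S3d label and 21 lower, and 17 were not called, against a background of 73.9% of probes called. By the own labels of the table, 19 were higher and 8 lower. The count was 28 in all, also without the array labelled S3d 1. Without scaling, 43 of the 45 were called, all of them higher, where 96.0% of all probes were called. The directions below are thus again relative to the rest of the array. The median difference was -0.19. The other Toll-like receptors did not differ in a single direction. Tlr6, the partner of Tlr2, was lower by a difference of -1.19 and Tlr10 by -0.72, Tlr1 was not called at -0.19, and Tlr7, which binds single-stranded RNA in endosomes, was higher at 1.08 (limma, adjusted p = 0.00165). The direction of Tlr7 turned to -0.59 with normexp and replaced backgrounds, and without scaling all 4 were called higher.

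Among co-receptors and receptor chaperones, 1 of 6 tested genes was higher and 2 were lower, against 39.4% and 34.5% of all probes. Ly96, the MD-2 subunit that holds lipopolysaccharide on Tlr4, was lower with a difference of -0.91 ± 0.09 (SE, limma, adjusted p = 0.000243), or 0.94 without scaling. Cnpy3, a chaperone that folds Toll-like receptors, was lower at -1.24 (limma, adjusted p = 4.5e-05), or 0.60 without scaling. Cd36, a scavenger receptor that assists Tlr2, was higher at 1.63 (limma, adjusted p = 0.00224). Cd14, the co-receptor that hands lipopolysaccharide to Tlr4, was not called on its brighter probe at 0.11, whereas its other probe was called at 1.15 (limma, adjusted p = 0.000755). The probes of Cd14 thus disagreed. Ly96 was lower, as was Tlr4, the receptor it serves.

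Of 11 adaptors and kinases, 3 were higher and 4 lower, against 39.4% and 34.5% of all probes. Irak4, the kinase recruited by Myd88, was not called at 0.07, and Traf6, the ubiquitin ligase below it, was not called at -0.14. Traf6 read -0.72 on the array labelled S3d 1 against 0.06 and 0.07 on the other arrays of that group. Ripk2, the kinase of Nod1 and Nod2, was called higher at 0.60 (limma, adjusted p = 0.00023) on its brighter probe and lower at -0.55 (limma, adjusted p = 0.000595) on the other probe, so its direction is not settled by these arrays. Ripk1, a kinase of death receptor and Toll-like receptor signalling, was lower at -0.92. The remaining calls of this list lay between -0.31 and 0.40.

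Of 7 NF-kappaB and interferon regulatory factor genes, 4 were lower, against 34.5% of all probes, and none was called higher by limma. With a replicate block, with array weights or without the array labelled control 1, 1 gene was called higher. Ikbkg, a further subunit of the kinase complex, was not called at 0.27, with an unadjusted p of 0.0469 from limma. It was at -0.05 after quantile normalization and called lower at -0.56 with normexp and replaced backgrounds. Irf7, which drives interferon genes after endosomal sensing, was lower at -1.49 ± 0.13 (SE, limma, adjusted p = 0.000144), or 0.36 without scaling. Rela, the NF-kappaB subunit p65, was lower at -0.996, Ikbkb, a kinase that releases NF-kappaB, at -0.76. Irf3 was lower at -0.28 but called higher at 0.23 after quantile normalization. For this list, 6 genes were higher and 0 lower without scaling, and 3 were higher and 1 lower by the labels of the table. All 6 tested inhibitors were lower, against a background of 34.5% of probes, but 5 of the 6 were called higher without scaling, where all 6 stayed below the median of all probes, and 5 were called higher by the labels of the table. Nfkbia, which holds NF-kappaB in the cytosol and is also its target gene, was lower at -1.24 ± 0.11 (SE, limma, adjusted p = 0.000134). Tnip1, a ubiquitin-binding inhibitor of NF-kappaB, was lower at -1.67 ± 0.09 (SE, limma, adjusted p = 2.46e-05), and Nfkbib at -1.21. Tollip and Sigirr, which dampen Toll-like and interleukin-1 receptor signalling, were lower at -0.69 and -0.65. Cyld, a deubiquitinase, was lower at -0.16 (limma, adjusted p = 0.0478) and lost its call when any 1 array was left out.

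Of 11 inflammasome partners and products, 2 were higher and 3 lower, against 39.4% and 34.5% of all probes. Pycard, the adaptor ASC that joins sensors to caspase-1, was lower at -0.82 (limma, adjusted p = 0.000704), but at -0.24 after quantile normalization it was not called, and it was 1.03 without scaling. Nek7, which binds Nlrp3, was lower at -0.82. Casp1, the protease that inflammasomes activate, was higher at 0.36 ± 0.06 (SE, limma, adjusted p = 0.00152). Txnip, a stress-induced protein reported to bind Nlrp3, was higher at 1.29 (limma, adjusted p = 0.000152). Of the cytokines that caspase-1 cleaves, Il18 was lower at -1.20 ± 0.12 (SE, limma, adjusted p = 0.000255), or 0.65 without scaling, and Il1b was not called on either of its probes, at -0.04 and 0.20.

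**Figure D3:**
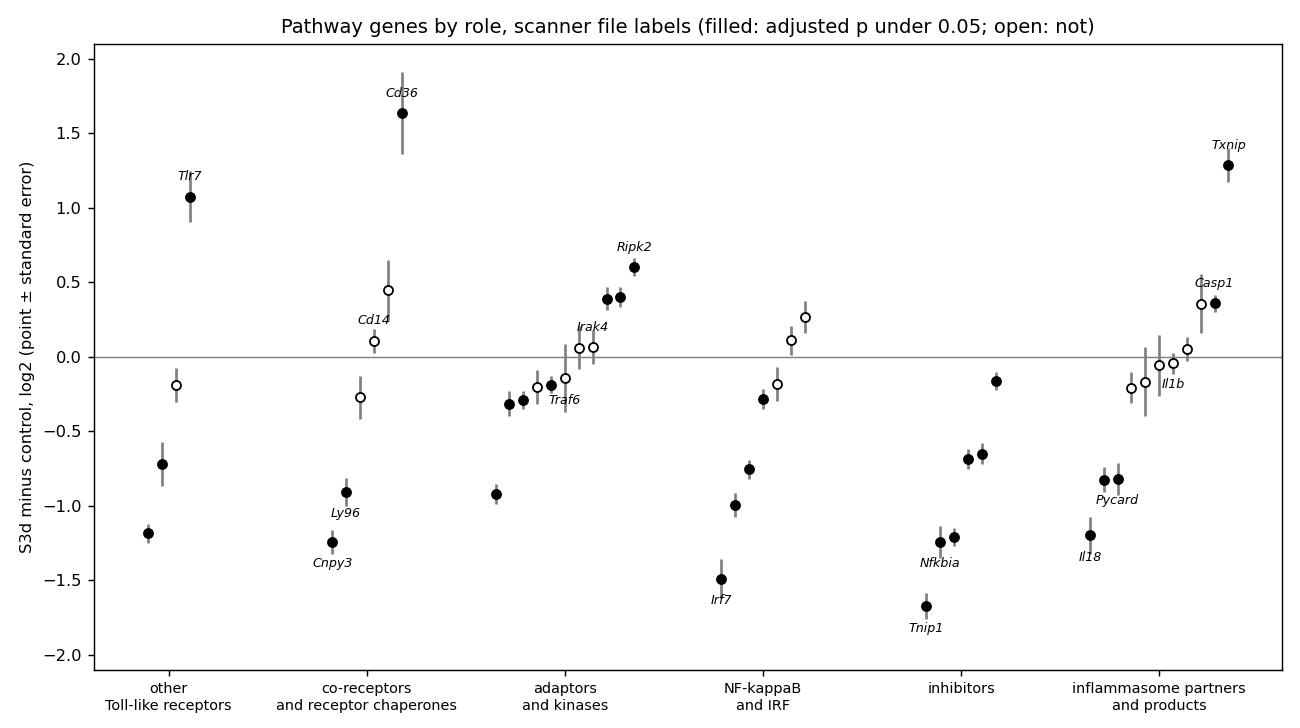
Difference between the groups, S3d minus control on the log2 scale (vertical axis, point ± standard error), for 45 pathway genes sorted by role, filled where the adjusted p was under 0.05. The inhibitors all lie below 0, and the other groups hold genes on both sides of 0 or uncalled genes; without scaling between arrays most of these differences are above 0.

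Markers of the cell types that carry these sensors also differed between the groups, and their part in the results above was not tested. The counts of markers stand beside 39.4% of all probes called higher and 34.5% called lower. The summed signal of 6 enterocyte markers, relative to the 75th percentile, was 2024 to 2313 on the arrays labelled control, against 948 to 1005 on those labelled S3d, with 5 markers lower and 1 higher. This depended on the scaling. After quantile normalization 3 of the 6 were called higher and 0 lower, and by the own labels of the table, 3 were lower and 0 higher. Fabp2, an enterocyte fatty acid carrier, was -1.09 with the 75th percentile scaling and 0.12 after quantile normalization. For 7 myeloid markers the sum was 16.7 to 17.3 against 13.2 to 14.9, with 3 markers lower and 3 higher. For 6 lymphocyte markers it was 1.74 to 2.04 against 0.970 to 0.977, with 4 markers lower and 1 higher. Ptprc, the pan-leukocyte antigen CD45, had the largest of these differences at -2.64, on the brightest of its 3 probes. The others were smaller, at -1.13 for Cd79b, -0.41 for Cd3e, -0.29 for Cd8a and 0.42 for Cd2, and Cd4 was not tested. The sum of 3 goblet and Paneth cell markers was 728 to 738 against 202 to 210, with 2 markers lower and 0 higher. Most of this signal was that of Tff3, the brightest of them. Lyz2 was not called at -0.08 and was called higher at 0.52 after quantile normalization. The sum of 4 smooth muscle markers was 68.0 to 80.2 against 44.4 to 52.3, with 2 markers lower and 1 higher (Myh11, at 0.98). Without scaling, more markers were called higher than lower in the enterocyte, smooth muscle, myeloid and lymphocyte lists. The enterocyte markers were bright on every array, and apart from the pancreatic genes no list overlapped between the groups.

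**Figure D4:**
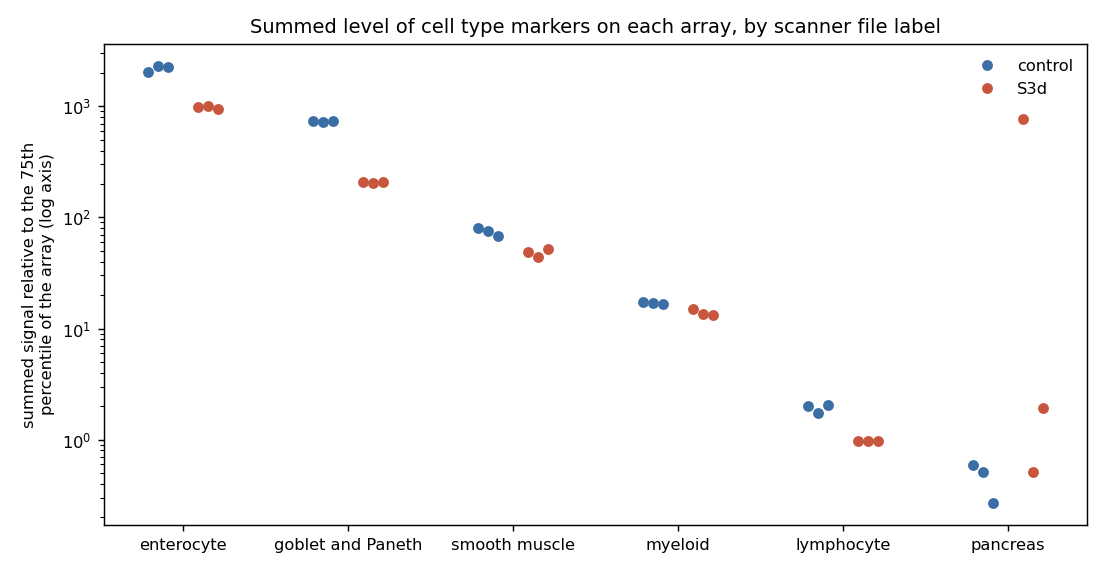
Summed signal of 6 marker lists relative to the 75th percentile of each array (vertical axis, log scale), with 1 point for each array labelled control (blue) and S3d (red). The arrays labelled S3d lie lower in the first 5 lists with this scaling, which for the enterocyte list does not hold after quantile normalization (3 of 6 markers higher, 0 lower), and the array labelled S3d 1 alone reaches 761 for the pancreas list.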

How the data were processed

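Jejunal RNA of 3 control and 3 S3d samples was measured on 1-colour arrays. For each array the authors deposited the Agilent Feature Extraction 10.7.3.1 output, whose intensity values (processed signal) were corrected for background but not scaled between arrays. The authors also deposited a table of log2 values, which the sources used here do not describe further than as normalized. Its columns were used by their own labels and only as an alternative.

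From the processed signal, log2 values minus the 75th percentile of the array were computed. Control spots and outlier-flagged spots were left out and repeated spots averaged. A probe entered the test if every array of either group read it well above background, which held for 31367 of 41012 probes (739 by the control arrays only and 3576 by the S3d arrays only). The test was limma 3.58.1 under R 4.3.3 (lmFit, eBayes, no block) with Benjamini-Hochberg adjustment. On simulated data with 200 changed probes among 27052, limma recovered 71% of changes of 1 and 25% of changes of 0.5 on the log2 scale, with 2 false calls. The simulation changed a far smaller share than the 73.9% of probes called in the data, and it held no slide difference. Its rates therefore do not describe the calls made here. Python 3.11.15 was used for promoters and plots.

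Probes were named through RefSeq accessions of the GRCr8 table. The design files of the slides differed in the accession of 1774 probes, and the newer one was used. A gene with several probes was represented by the brightest. Values were named for all 10 listed genes, for a list of pathway genes kept whatever their values, and for the 3 largest rises and 3 largest falls of the pathway list among called genes that were above background throughout and did not overlap between groups. Of the pathway list, Tlr8, Tlr11, Tlr12, Tlr13, Unc93b1, Tirap, Ticam1, Traf3, Tab2, Tab3, Nfkb1, Tnfaip3, Nlrc4, Nlrc3, Nlrc5, Aim2 and Gsdmd had no probe by this rule, and Irak3 and Nlrp10 were not tested because they were not well above background. Members, lists and tests were chosen with earlier results of these data known. Other genes given with values in the pathway and marker lists were chosen after their values were seen.

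Results were recomputed without scaling, with median centring or quantile normalization, with normexp (offset 50, on the median signal, since the files used hold no mean signal), with other filters for dim probes, with outlier spots, from the deposited table, with a replicate block, with array weights, with an intensity trend, by the analysis of variance that the methods name, and with a fold change of at least 1.5, the mean over the probes of a gene, and each array left out. Slide could not be fitted as a block, since no slide held both groups. Precision is limited by having 3 arrays per group. RT-PCR directions were taken as the study states them, without values. One marker gene of the lists is not reported here and was left out of its list.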

Additional observations from a re-analysis of the deposited data

How the results depend on the processing

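The 7 called sensors kept their direction and their call under quantile normalization, median centring, both other filters, outlier spots kept, the intensity trend, array weights, the analysis of variance of the methods, the 1.5-fold rule and each array left out. With normexp, 1754 probes, 1 sensor (Naip2) and 2 pathway genes were called. Reversals in this section are listed for the sensors and the pathway genes named by rule, and other genes are added only where said. On the array labelled control 3 the highest local background was 54705, against 48 to 117 on the others, and its interquartile range after normexp was 0.377, against 2.82 to 3.94. Once flagged backgrounds were replaced, an alternative added after the data were seen, 25520 probes and 7 sensors were called, and Tlr7 (-0.59) and Il1b (0.056) reversed. Of the other pathway genes, Ikbke turned from called higher (0.40) to called lower (-0.20). Lbp (-1.05), Ticam2 (-0.81), Ikbkg (-0.56) and Nlrp12 (-0.85), uncalled before, were called lower, and the uncalled Chuk reversed (-0.012). Plain normexp reversed Tlr7 (-1.36), Irak4 (-0.17), Ripk2 (-0.14) and Il1b (0.31) and, beyond the genes named by rule, Cyld (0.096).

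The share of called probes that were higher was 53.3%, against 42.8% with median centring, 98.1% without scaling, 31.1% with normexp and 25.9% with replaced backgrounds. The median of all tested probes was 0.08, 0.01 with quantile normalization, -0.12 with median centring, 1.93 without scaling, -0.68 with normexp and -0.42 with replaced backgrounds. Without scaling 43 pathway genes were called, and Tlr4 (1.02), Tlr5 (1.00), Nlrp3 (0.71), Ly96 (0.94), Cnpy3 (0.60), Traf6 (1.70), Irf7 (0.36), Nfkbia (0.61), Tnip1 (0.17), Pycard (1.03), Il1b (1.80) and Il18 (0.65) reversed. Of the other pathway genes given with values, Tlr1 (1.66), Tlr6 (0.66), Tlr10 (1.13), Ripk1 (0.93), Rela (0.85), Ikbkb (1.09) and Irf3 (1.56) reversed too. So did Nfkbib (0.64), Tollip (1.16), Sigirr (1.20), Cyld (1.69) and Nek7 (1.02). The uncalled Tlr3 (-0.11), Cd14 (-0.092) and Irak4 (-0.13) reversed with median centring, Irf3 turned to 0.23 with quantile normalization, and Il1b did so there (0.022) and over the mean of its probes (0.078). By the labels of the deposited table Tlr2 (2.07), Tlr3 (-0.20), Tlr4 (0.95), Tlr5 (1.32), Tlr9 (-2.41), Myd88 (-0.80), Nlrp3 (1.62), Naip2 (2.15), Tlr7 (-0.59), Cd14 (-0.13), Ly96 (1.08), Cd36 (-1.75), Cnpy3 (1.52), Irak4 (-0.045), Traf6 (0.14), Ripk2 (-0.48), Irf7 (1.04), Nfkbia (0.92), Tnip1 (1.65), Pycard (0.23), Casp1 (-0.81), Txnip (-1.40) and Il18 (0.98) reversed, as the exchanged labels entail.

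With 1 array left out, the difference lay between -0.0014 and 0.21 for Tlr3, between -0.023 and 0.15 for Irak4, between -0.28 and 0.12 for Traf6 and between -0.074 and 0.0032 for Il1b, the values that changed sign. The deviations of same-numbered arrays from their group means correlated at 0.02, 0.02 and -0.05. These values show no pairing by number, but with 3 arrays per group they cannot exclude one. With the replicate number as a block, 22212 probes, 7 sensors and 28 pathway genes were called. Of these pathway genes 9 were higher and 19 lower, against 7 and 21 without the block. The processed signal over background limits the dim probes. Among these were Tlr9, Tlr5, Nlrp3, Tlr7 and Lbp, with means of -4.56, -3.97, -3.92, -5.16 and -5.26 on the arrays labelled control. The cause of the changes between settings was not tested.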
